A study of Mus musculus with 11 samples.

Results

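miR-203 (mmu-miR-203 in the table) was followed in the oviduct of 11 female mice of the outbred CD1 strain, after lipopolysaccharide (LPS) or none. It was found by name as 1 of the 566 mouse miRNA probes of the assay. It had been picked because its counts rose with the LPS dose in these same mice. Its levels are therefore given as a description, with no test of its own group differences. The groups were 3 control mice given 0 µg of LPS, 4 low dose mice given 2 µg and 4 high dose mice given 10 µg. All mice were 6 to 8 weeks old and injected intraperitoneally on the day of estrus, with phosphate-buffered saline as the carrier of LPS, and oviducts were taken 24 h later. The LPS was from Escherichia coli serotype 055:B5. The labels describe 1 mouse per sample and whole oviduct RNA. In whole tissue, a change in the share of a cell type and a change in the RNA per cell cannot be told apart. The study's design asked which oviductal miRNAs respond to LPS at either dose.

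A miRNA guides the Argonaute silencing complex to messenger RNAs that pair with its seed, the short stretch near its 5′ end, and lowers their stability and translation. miR-203 is best known from the skin, where it is abundant in stratified epithelium, represses the stem cell factor p63 (Trp63) and limits the proliferative potential of keratinocytes as they leave the basal layer. In human cancer cell lines, ZEB1, a repressor of epithelial genes, represses miR-203 together with the miR-200 family. Suppressor of cytokine signalling 3 (SOCS3) has been described as a target in human skin. LPS coats Gram-negative bacteria and is sensed by Toll-like receptor 4.

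The mature sequence is shown because its seed sets which messages it can pair with, and the hairpin because the same locus also makes RNA from the opposite strand. In RefSeq (GRCm38.p6), Mir203 lies at chr12:112130880-112130955 on the plus strand, between the protein-coding genes Aspg and Kif26a. The probe name gives no arm, and this older name denotes the 3p arm, at chr12:112130927-112130948. Capitals mark the seed (bases 2 to 8) in the mature RNA and the 3p arm in the hairpin.
miR-203-3p: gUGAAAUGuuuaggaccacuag
Mir203 hairpin: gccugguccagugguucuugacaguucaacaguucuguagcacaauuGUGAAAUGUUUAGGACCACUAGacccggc
miR-203b-5p, minus strand, chr12:112130927-112130946: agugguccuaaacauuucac
The reverse complement of the seed, which a paired message would carry in DNA letters, is CATTTCA. None of the other 1678 mouse mature miRNA names in the RefSeq table shared bases 2 to 8 or bases 2 to 7 with miR-203-3p. The nearest mature sequence was miR-203b-3p, 6 edits away, and no probe of the table carries its name. miR-203b comes from the overlapping gene Gm51289 on the minus strand. All 20 bases of miR-203b-5p lay within the reverse complement of miR-203-3p.

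In the nCounter assay, tagged miRNAs bind colour-coded probes whose barcodes are counted singly, without amplification. Lanes held between 451323 and 684771 mouse miRNA counts, and 205 miRNAs counted as detected, meaning that in 3 lanes or more they exceeded a bound set 2 SD above the mean negative control of that lane. miR-203 was above that bound in all 11 lanes. In high dose lanes its raw counts were 278, 314, 365 and 407, which was 3.21 to 5.96 times the bound. In low dose lanes they were 222, 181, 260 and 231, or 1.62 to 2.92 times the bound. In control lanes they were 121, 98 and 127, or 1.44 to 2.12 times the bound. The lowest margin among mice given LPS, in low dose mouse 4, went with the highest bound of any lane, 142.9 counts. Exact Poisson 95% intervals, which cover counting error only, ran from 79.6 to 119 for the lowest lane (98 counts) and from 368 to 449 for the highest (407 counts). In all 8 LPS lanes the count of miR-203 fell between those of the positive controls POS_E and POS_D, whose concentrations differ 4-fold by their names (0.5 and 2). In control mice 2 and 3 it fell below POS_E. Between POS_E and POS_C the positive controls gave 1.12 log2 units of count per log2 unit of concentration (median of 11 lanes, range 1.04 to 1.20).

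Normalized counts of miR-203 rose in steps with the dose. Counts were scaled between lanes with TMM (trimmed mean of M-values), computed on the detected miRNAs. The 3 control mice had 115.7, 111.4 and 131.1 normalized counts of miR-203. The 4 low dose mice had 212.5, 184.7, 218.1 and 217.1. The 4 high dose mice had 349.0, 307.8, 351.8 and 419.6. No mouse of a group overlapped with a mouse of another. Of the 205 miRNAs, 13.7% lay wholly higher in high dose than in control mice and 13.7% wholly lower, 10.7% wholly higher in low dose than in control mice and 13.2% wholly lower, and 2.93% wholly higher in high dose than in low dose mice and 4.88% wholly lower. Since miR-203 was chosen on these values, nothing is read from its place among them. The lowest low dose mouse stood 1.41 times above the highest control mouse, and the lowest high dose mouse 1.41 times above the highest low dose mouse. Group means were 119 ± 10.4 in controls (SD, n = 3), 208 ± 15.8 at the low dose (n = 4) and 357 ± 46.3 at the high dose (n = 4).

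**Figure D1:**
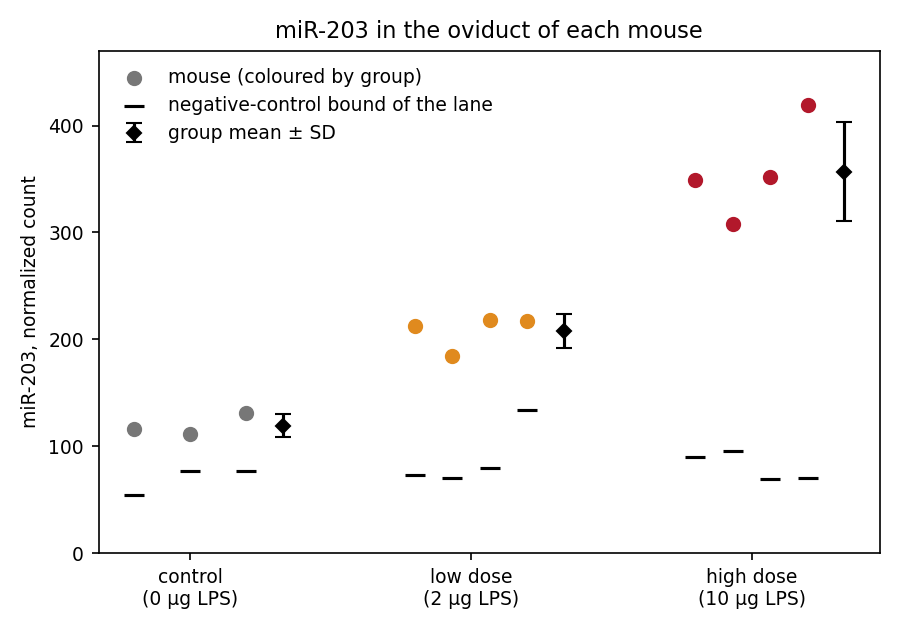
Normalized counts of miR-203 (y axis, linear from 0) in each mouse of the control, low dose and high dose groups (x axis). Dots are mice, diamonds are group means with SD, and short lines are each lane's negative-control bound on the same scale. All dots lie above their own bound, and the 3 groups occupy separate ranges of 111.4 to 131.1, 184.7 to 218.1 and 307.8 to 419.6.

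The order of the levels was thus control, low dose, high dose, and each neighbouring pair differed by more than the spread within either group. On the log2 scale the high dose stood 1.58 ± 0.12 above control (SE of the edgeR fit, 2.99-fold), the low dose 0.80 ± 0.12 above control (1.74-fold), and the high dose 0.78 ± 0.11 above the low dose (1.71-fold). The second step was taken over a 5-fold rise in dose. In mean log2 counts the first step was 0.80 and the second 0.77. Among the 205 detected miRNAs the difference between high dose and control stood first, with miR-101a next at 1.53 ± 0.18 (SE), so that first and second place were not separated. Between the doses miR-203 was followed by miR-101a at 0.62 ± 0.15, and between low dose and control it ranked 7th from the top. These ranks rest on the values for which miR-203 was chosen. The middle 90% of the 205 miRNAs ran from -0.48 to 0.75 for high dose over control and from -0.38 to 0.52 for low dose over control. Both LPS groups were compared with the same 3 control mice.

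Mice of a group differed little at the low end of the range. The SD between control mice was 0.931 times what counting error alone would give, and that between low dose mice 1.13 times. At the high dose it was 2.38 times. Counting error leaves out any difference between animals. Within the high dose, mouse 4 had the highest miR-203 and mouse 2 the lowest. By raw count, miR-203 ranked 101st to 110th of 205 in high dose lanes, 124th to 136th in low dose lanes and 142nd to 154th in control lanes. Probes differ in how well they capture their miRNA, so these are ranks of counts.

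The direction did not depend on the scaling, but the size did. Over 8 other scalings the difference of high dose from control ran from 1.20 to 1.75 (log2), that of low dose from control from 0.62 to 1.11, and that between the doses from 0.58 to 0.81. The smallest values came from scaling to the 4 mRNA reference probes (B2m, Actb, Rpl19 and Gapdh). One of these, B2m, the light chain of MHC class I, itself lay above all control mice in 7 of the 8 LPS mice. With that scaling the lowest high dose mouse had 237.1 counts of miR-203 and the highest low dose mouse 303.5, so these groups overlapped, and the lowest low dose mouse (165.1) lay below the highest control mouse (172.4). With B2m left out of the reference, an alternative added after seeing the data, the 3 groups were separate again, at 295 or more in high dose mice, 181.3 to 286.7 in low dose mice and at most 128.3 in control mice. Subtracting the mean of the negative controls, which matters most for low counts, raised the difference of high dose from control to 1.90 ± 0.14 (SE) and that of low dose from control to 1.00 ± 0.14. Leaving out any 1 mouse left the differences between 1.52 and 1.65, 0.75 and 0.87, and 0.73 and 0.84 in the same order of comparisons.

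**Figure D2:**
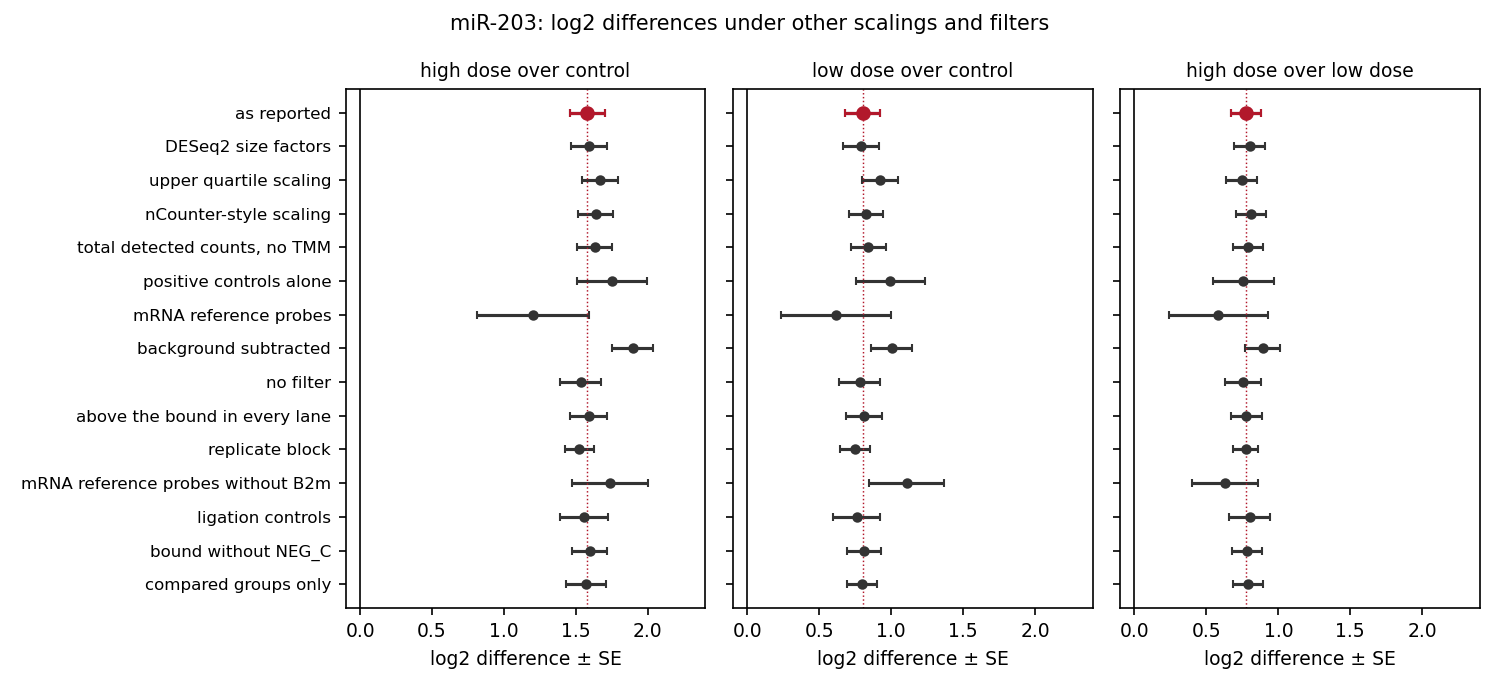
Log2 difference of miR-203 (x axis, with the SE of the fit as bars) for high dose over control, low dose over control and high dose over low dose (panels from left to right) under each scaling, filter or fit (rows). The values used in the text are at the top in red. All points lie above 0, the widest bars belong to scaling by the mRNA reference probes, and the largest difference from control, 1.90, comes with background subtraction.

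The other epithelial miRNAs of the assay were examined beside miR-203. The list held 13 miRNAs known to be enriched in epithelia, among them the miR-200 family, which keeps ZEB1 and ZEB2 low, and 12 were detected (miR-182 was not). Of these, miR-183 exceeded the bound in 7 lanes, miR-192 and miR-194 in 8, miR-31 in 9 and the others in all 11. At the high dose 1 of the 12, miR-375, fell and none rose in edgeR's quasi-likelihood test, beside 18.0% of the 205 detected miRNAs called in either direction (10.2% higher, 7.80% lower). At the low dose none of the 12 passed in edgeR, beside 5.85% of all (3.41% higher, 2.44% lower). DESeq2 called 1 (20 of all 205), and 2 had an unadjusted edgeR p under 0.05 (56 of all 205). Between the doses none passed in edgeR, beside 0.488% of all. There DESeq2 also called 0 (4 of all 205), and 4 had an unadjusted edgeR p under 0.05 (27 of all 205). The 0.488% is a single miRNA, miR-203 itself, and nothing is read from that. With 12 miRNAs, a count of 0 higher is near the shares over all detected miRNAs. The median log2 difference of the 12 was 0.03 at the high dose and -0.10 at the low dose, against -0.03 and -0.0015 for all 205.

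miR-375, which marks secretory and endocrine epithelia, moved opposite to miR-203. High dose mice had 454.4, 373.5, 875.2 and 475.2 normalized counts, low dose mice 1291.0, 880.8, 655.9 and 795.9, and control mice 1445.5, 1376.3 and 1403.8. All high dose mice lay below all control mice, and its log2 difference from control was -1.37 ± 0.27 (SE, edgeR adjusted p = 0.00305). At the low dose it stood at -0.64 ± 0.27 (edgeR adjusted p = 0.145), which did not pass. miR-205, like miR-203 a miRNA of stratified epithelium, did not pass, with 876 ± 209 normalized counts at the high dose and 1052 ± 211 in controls (SD, n = 4 and 3; log2 difference -0.27 ± 0.24 SE, edgeR adjusted p = 0.452). In the miR-200 family, miR-200a stood 0.26 ± 0.12 (SE) above control at the high dose (edgeR adjusted p = 0.153) and miR-200b 0.13 ± 0.09 (edgeR adjusted p = 0.339). On the other side, miR-200c stood at -0.11 ± 0.13, miR-429 at -0.10 ± 0.12 and miR-141 at -0.04 ± 0.12 (SE) at the high dose. At the low dose miR-429 stood at -0.38 ± 0.12 (SE, edgeR adjusted p = 0.0767). miR-192 and miR-194, best known from gut and liver epithelium, stood at 0.16 ± 0.13 and -0.24 ± 0.13 (SE). Both lay near the bound and exceeded it in only 8 of 11 lanes. All 5 miRNAs of the miR-200, miR-141 and miR-429 group were detected in all 11 lanes, and none passed at either dose.

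**Figure D3:**
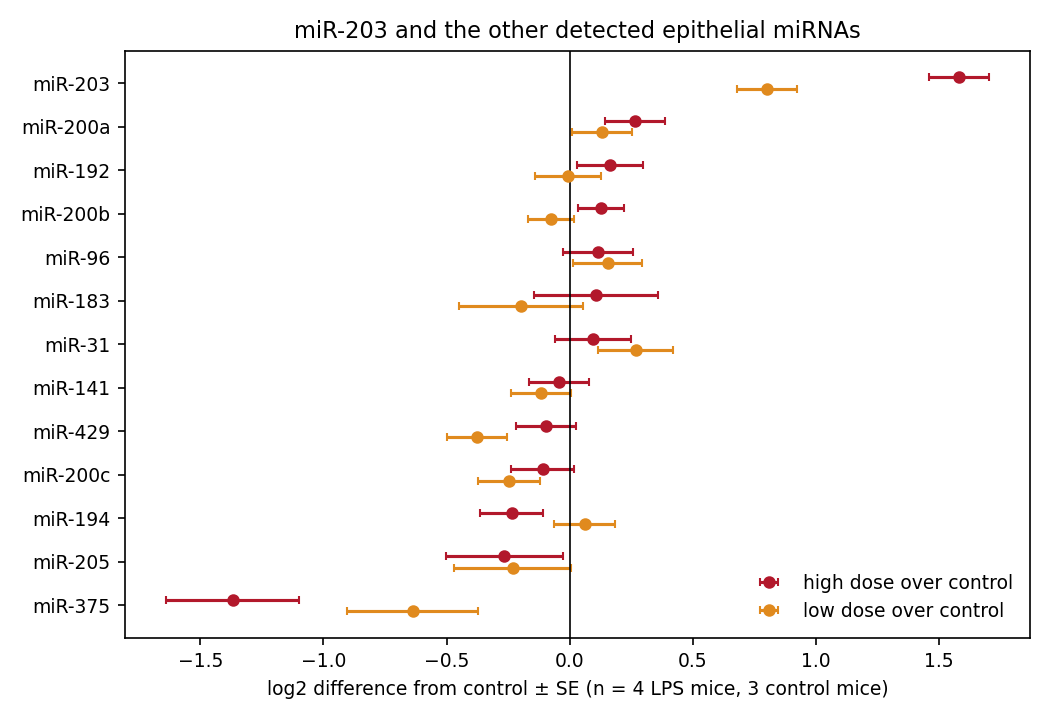
Log2 difference from control (x axis, with the SE of the edgeR fit as bars) of miR-203 and the 12 other detected epithelial miRNAs (rows, ordered by their high dose value) at the high dose and the low dose. miR-203 lies at 1.58 and 0.80 and miR-375 at -1.37 and -0.64, while the other 11 lie between -0.38 and 0.27.

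A ratio taken within a lane does not depend on the scaling between lanes. The log2 ratio of miR-203 to the geometric mean of the other 12 epithelial miRNAs was -1.31, -1.57, -1.32 and -0.96 in high dose mice, -2.26, -2.07, -1.92 and -2.01 in low dose mice, and -2.998, -3.05 and -2.90 in control mice. The 3 groups did not overlap in this ratio. Its numerator is the counts for which miR-203 was chosen, so nothing is read from that separation. It was 3.23-fold higher at the high dose and 1.89-fold higher at the low dose than in control mice. Against the 5 members of the miR-200, miR-141 and miR-429 group alone the rises were 2.92-fold and 1.92-fold. The level of a ratio between probes has no meaning of its own here, and only its change between groups is described.

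Ratios to single partners were taken for miR-375, miR-200a and miR-205. They use the counts for which miR-203 was chosen, and miR-375 moved opposite to it in these same mice, so they are a description. For every 100 raw counts of miR-375, miR-203 had between 40.2 and 88.3 counts in high dose mice, between 16.5 and 33.3 in low dose mice and between 8.00 and 9.34 in control mice. High dose mouse 3, with the most miR-375 of its group, had the lowest of the 4 high dose ratios. For every 100 counts of miR-200a, miR-203 had 3.40 to 5.93 in high dose mice, 2.72 to 3.09 in low dose mice and 1.77 to 1.91 in control mice. Ratios to miR-205 overlapped between the doses, at 30.1 to 72.2 in high dose mice and 18.8 to 31.6 in low dose mice, and were 8.98 to 13.3 in control mice. As a share of the summed counts of all 13 detected epithelial miRNAs, miR-203 made up 0.757% to 1.17% at the high dose, 0.526% to 0.633% at the low dose and 0.298% to 0.333% in controls. For the lane with the highest share the exact binomial 95% interval was 1.06% to 1.29%.

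Among miRNAs known from LPS and Toll-like receptor responses, 12 of 16 listed besides miR-203 were detected. At the high dose 4 rose, none fell and 8 did not pass (10.2% of all detected miRNAs were called higher). At the low dose 2 rose and 10 did not pass (3.41% of all called higher). There DESeq2 called 3 (20 of all 205), and 6 had an unadjusted edgeR p under 0.05 in either direction (56 of all 205). Between the doses none passed in edgeR (0.488% of all called), while DESeq2 also called 0 and 3 had an unadjusted edgeR p under 0.05, against 27 of all 205. Their median log2 difference was 0.07 at the high dose and 0.12 at the low dose. miR-222, which targets the cell cycle inhibitor p27, rose at both doses by nearly the same amount. It had 199.6 to 297.0 normalized counts in high dose mice, 227.8 to 279.3 in low dose mice and 123.9 to 145.5 in control mice. Its log2 difference was 0.93 ± 0.14 at the high dose (SE, edgeR adjusted p = 0.000778) and 0.91 ± 0.14 at the low dose (edgeR adjusted p = 0.00254). miR-221, on the same list, did not pass at either dose. It stood at -0.24 ± 0.26 (SE) at the high dose and -0.37 ± 0.26 at the low dose.

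miR-21, an abundant miRNA induced in many inflamed tissues, likewise stood at 0.47 ± 0.12 (SE, edgeR adjusted p = 0.0131) and 0.52 ± 0.12 (edgeR adjusted p = 0.0195) at the high and low dose. miR-146a, a brake on Toll-like receptor signalling that targets Irak1 and Traf6, rose at the high dose by 1.43 ± 0.24 (SE, edgeR adjusted p = 0.00163). At the low dose it stood at 0.82 ± 0.24 (SE, edgeR adjusted p = 0.0548), which did not pass. It had 2830.8, 1290.0, 2505.2 and 3082.4 normalized counts in high dose mice, 1608.7, 1801.5, 1287.5 and 1683.9 in low dose mice, and 828.9, 901.2 and 977.5 in control mice. High dose mouse 2 thus lay within the low dose range for miR-146a, which was not so for miR-203. miR-146b did not pass at either dose. It stood at -0.0017 ± 0.11 (SE) at the high dose and 0.26 ± 0.11 at the low dose. miR-155, a miRNA of activated macrophages and lymphocytes, rose by 0.72 ± 0.13 (SE, edgeR adjusted p = 0.00174) at the high dose. At the low dose it stood at 0.39 ± 0.13 (SE, edgeR adjusted p = 0.0767), which did not pass. Its probe name carries a factor of 0.022 that, multiplied by the POS_A count, exceeded its own count in 4 of 11 lanes, among them all 3 control lanes, while the factor of miR-203 is 0. With mRNA probe scaling none of the 12 passed at either dose.

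To find the miRNAs whose pattern was most like that of miR-203, log2 counts were centred on each miRNA's control mean. The root mean square difference from miR-203 was then taken over the 11 lanes, among the 145 miRNAs above the bound in every lane. Nearness was measured on the same counts that chose miR-203, so it is a description. The 5 nearest were miR-101a (0.22 log2 units), miR-146a (0.31), miR-1902 (0.36), miR-222 (0.45) and miR-26a (0.46). Their mature sequences from RefSeq are shown so that the seeds, in capitals, can be set against that of miR-203.
miR-203-3p: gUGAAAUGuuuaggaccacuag
miR-101a-3p, chr4:101346957-101346977, minus strand: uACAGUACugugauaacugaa
miR-146a-5p, chr11:43374435-43374456, minus strand: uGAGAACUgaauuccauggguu
miR-1902, chr2:104428871-104428892, minus strand: aGAGGUGCaguaggcaugacuu
miR-222-3p, chrX:19146901-19146923, minus strand: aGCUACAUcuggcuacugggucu
miR-26a-5p, from Mir26a-1 (chr9:119031811-119031832) and Mir26a-2 (chr10:126995543-126995564), both plus strand: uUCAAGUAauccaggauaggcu
The 6 seeds differ, and the genes lie on different chromosomes.

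miR-101a, known for targeting the histone methyltransferase Ezh2, came closest. It had 286.2, 301.9, 240.0 and 323.7 normalized counts in high dose mice, 135.9, 189.8, 233.2 and 188.9 in low dose mice, and 100.4, 85.2 and 113.5 in control mice. Its groups were also separate, but only by 240.0 against 233.2 between the doses. miR-26a, which also targets Ezh2, had 344.1 to 526.8 counts in high dose mice, 281.4 to 415.4 in low dose mice and 202.3 to 249.5 in control mice, and miR-1902 had 265.7 to 481.4, 276.8 to 339.9 and 151.1 to 200.8. In both, the dose groups overlapped each other and stood above control. The 5 nearest were the same under all 8 other scalings. Leaving out 1 mouse kept 4 or 5 of them. The pattern nearest to the mirror image of miR-203 was that of miR-375, followed by miR-322 and miR-23a, but with mRNA probe scaling 0 of these 3 were among the 3 nearest to the mirror image. With positive controls alone or mRNA probes without B2m, miR-23a was not among them. Leaving out 1 mouse kept 2 or 3 of the 3. miR-322, an X-linked member of the miR-15/16 family, had 1204 ± 238 normalized counts at the high dose, 1595 ± 118 at the low dose and 2437 ± 299 in controls (SD). miR-23a, from the cluster with miR-27a and miR-24, had 4617 ± 252, 5540 ± 211 and 7459 ± 475 in the same order.

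**Figure D4:**
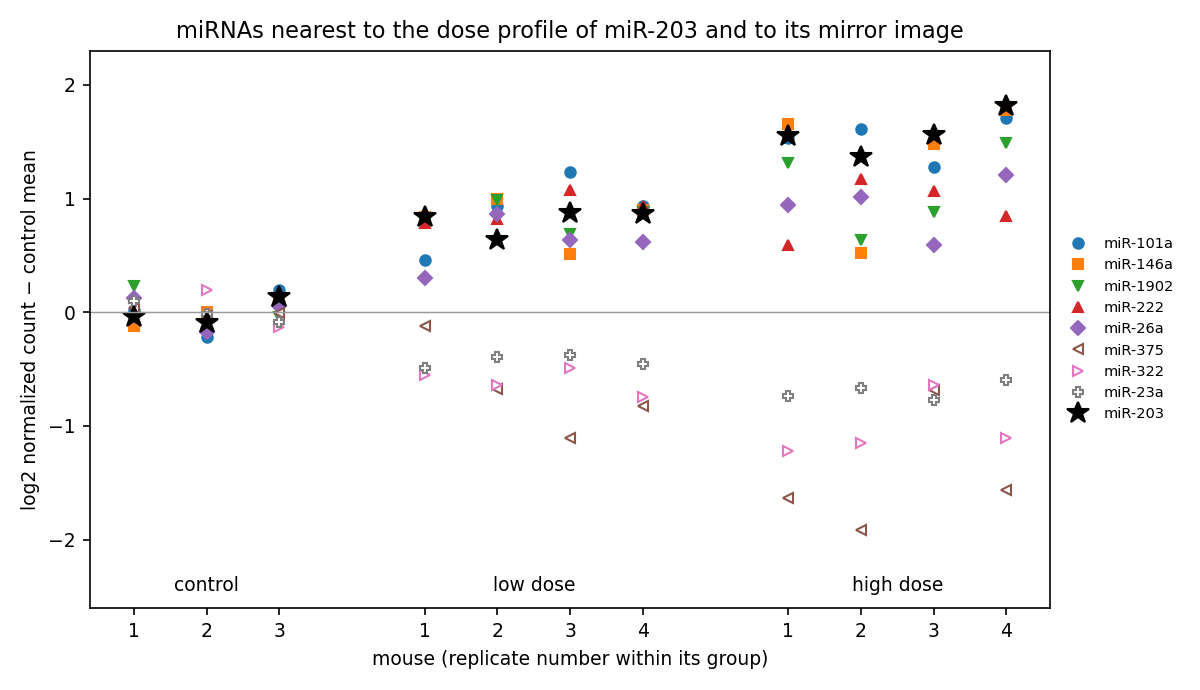
Log2 normalized count minus the control mean (y axis) in each mouse (x axis, grouped by dose) for miR-203 (stars), the 5 miRNAs nearest to its profile (filled symbols) and the 3 nearest to its mirror image (open symbols). miR-203 and miR-101a stay close in all groups, miR-146a drops away in high dose mouse 2, miR-222 is level between the doses, and miR-375, miR-322 and miR-23a lie below 0 in all 8 LPS mice.

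Strict dose order with no overlap of the 3 groups was rare in the assay. It was met in the rising direction by 3 of 205 miRNAs (1.46%), miR-203, miR-101a and miR-126-5p, and in the falling direction by 1 (0.488%), miR-23a. miR-126-5p, from a hairpin expressed in endothelium, had 1256.9 to 1912.3 normalized counts in high dose mice, 1068.6 to 1214.1 in low dose mice and 873.8 to 1020.5 in control mice. The other arm of that hairpin, miR-126-3p, stood at -0.02 (log2) for high dose over control and -0.10 for low dose over control, and did not pass at either dose. With scaling to the positive controls alone, or to the mRNA probes without B2m, 1 miRNA rose in strict order, and it was miR-203. With all 4 mRNA probes it was miR-146a instead. As miR-203 was chosen because its counts rose with dose in these mice, nothing is read from its place here.

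Other probes that differed between the mice are given here because they could bear on miR-203. Raw B2m counts were 5024, 924, 5052 and 4517 in high dose mice, 4010, 3229, 1608 and 3066 in low dose mice, and 643, 756 and 931 in control mice. High dose mouse 2 had both the lowest B2m and the lowest miR-203 of its group, but its B2m lay among the control values while its miR-203 lay above all control and low dose mice. Without this mouse the log2 difference of miR-203 between high dose and control was 1.64. Summed levels of the cell type lists overlapped between LPS and control mice in each case. The 5 leukocyte miRNAs, all detected, summed to 3676 to 4424 normalized counts at the high dose, 4896 to 5496 at the low dose and 3905 to 5364 in controls, so the doses did not overlap in that sum and the higher one was lower. The 12 other epithelial miRNAs summed to 35321 to 40367, 30283 to 40188 and 37272 to 39270 in that order of groups. The ciliated cell list (5 of 7 detected, without miR-449b and miR-449c) summed to 22749 to 29095, 22093 to 28662 and 23634 to 34148. The smooth muscle list (4 of 5, without miR-133b) summed to 41020 to 51698, 41578 to 59946 and 43490 to 55393. The endothelial pair, both arms of miR-126, summed to 5329 to 6957, 5124 to 5738 and 4840 to 6182. The 3 erythroid miRNAs summed to 2250 to 3134, 1870 to 5445 and 1425 to 4188. The part of B2m and of these cell types in the level of miR-203 was not tested. In the table header, controls carry the sample and lane numbers 1, 2 and 4, the low dose 5 to 8 and the high dose 9 to 12, so lane position and dose cannot be told apart.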

How the data were processed

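Barcode counts from the nCounter mouse miRNA assay were used as deposited, 1 lane per mouse. They were handled as estimated counts, since a lane quality value with decimals shares the columns in the authors' table, and all probe values were already whole. No scaling is recorded. The software that counted the barcodes was not given in the sources read. Per the design text 4 mice per treatment were planned, and 1 control mouse is not analysed here.

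Of 566 mouse miRNA probes, 205 passed the detection rule (mean plus 2 SD of the negative controls in at least 3 lanes). Tests used edgeR 4.0.16 in R 4.3.3: TMM scaling and a quasi-likelihood fit of a one-way model over the 11 mice, with Benjamini-Hochberg adjustment over the 205 and a threshold of 0.05. DESeq2 1.42.0 and limma 3.58.1 served as alternatives. P-values set a group difference against the spread between these mice, with 1 spread estimate shared by the 3 groups. Each SE of an edgeR log2 difference is its absolute value divided by the square root of the quasi-likelihood F statistic. That statistic uses a spread moderated across the miRNAs, so the SE does not come from the counts of 1 miRNA alone.

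Members and lists were chosen with earlier results of these data known. The rule for named miRNAs covered miR-203, the 5 nearest and 3 mirror profiles, up to 6 epithelial and 4 LPS-responsive members with the smallest high dose p, miRNAs in strict dose order and control probes. Among the miRNAs named outside this rule were miR-221, miR-146b, miR-126-3p, miR-183, miR-31, miR-200c, miR-429 and miR-141. Mature sequences were looked up in RefSeq for 9 named miRNAs, and 8 matched. Replicate numbers were shared between groups, but same-numbered mice deviated together in only 2 of 10 pairs (r over 0.1), so they were not treated as pairs.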

Additional observations from a re-analysis of the deposited data

Results flagged for a closer look

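Of 48 groups of 4 mice examined for 1 mouse standing apart, 4 did by Dixon's criterion at 95%, where chance would give about 1 in 20. For miR-203, low dose mouse 2 had 184.7 normalized counts, against 212.5 to 218.1 in the other low dose mice. For B2m, high dose mouse 2 had 924 raw counts, against 4517 to 5052 in the others. For miR-322, high dose mouse 3 had 1556.7 normalized counts, against 1040.7 to 1127.8. For Gapdh, low dose mouse 1 had 181 raw counts, against 144 to 150. Without low dose mouse 2, miR-203 averaged 214 normalized counts at the low dose and 119.5 in controls.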

How the results depend on the processing

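miR-203 was higher at the higher dose in all 3 comparisons under each of 25 alternatives. Its log2 differences follow in the order high dose over control, low dose over control, high over low dose. Against 1.58, 0.80 and 0.78 they were 1.75, 0.99 and 0.76 with positive controls alone, 1.20, 0.62 and 0.58 with mRNA probes, 1.74, 1.11 and 0.63 with mRNA probes without B2m, and 1.90, 1.00 and 0.89 with background subtraction. Leaving out 1 mouse gave 1.52 to 1.65, 0.75 to 0.87 and 0.73 to 0.84. Replicate numbers did not pair the mice, and with the number as a block the values were 1.52, 0.75 and 0.77, with 28, 11 and 1 miRNAs called.

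Calls among 205 miRNAs were 37 at the high dose, 12 at the low dose and 1 between the doses. At the high dose they were 18 with positive controls, 2 with mRNA probes, 16 without B2m, 23 with ligation controls and 25 to 40 leaving out 1 mouse. At the low dose they were 23 with upper quartile scaling, 19 with total counts, 0 with mRNA probes, 20 with DESeq2, 40 with unadjusted least significant differences, 3 with ligation controls and 3 to 13 leaving out 1 mouse (6, 4 and 3 without control mouse 1, control mouse 2 and low dose mouse 4). Between the doses they were 0 with positive controls or either mRNA scaling, 4 with DESeq2, 27 with unadjusted differences and 1 to 14 leaving out 1 mouse (14 without high dose mouse 3). The higher calls were 21 of 37 at the high dose and 7 of 12 at the low dose, against 29 of 35 and 22 of 23 with upper quartile scaling, 25 of 34 and 12 of 17 with nCounter-style scaling, 26 of 34 and 14 of 19 with total counts, 16 of 18 and 8 of 8 with positive controls, 14 of 16 and 12 of 12 without B2m, 16 of 23 and 3 of 3 with ligation controls, and 0 of 2 at the high dose with mRNA probes.

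Other epithelial calls at the low dose (0) became 1 with DESeq2 or unadjusted differences. Those between the doses (0) became 4 with unadjusted differences and 0 to 1 leaving out 1 mouse. LPS-responsive calls at the low dose (2) became 4 with upper quartile scaling, unadjusted differences or the compared groups only, 0 with mRNA probes, 1 without the filter or with ligation controls, and 1 to 3 leaving out 1 mouse. Those at the high dose (4) became 0 with mRNA probes, and those between the doses (0) became 1 with unadjusted differences and 0 to 1 leaving out 1 mouse. The 3 miRNAs rising in strict dose order became 5 with nCounter-style scaling, 6 with total counts, 1 with positive controls or either mRNA scaling, and 3 to 7 leaving out 1 mouse. The 1 falling became 0 with positive controls or mRNA probes without B2m, 2 with DESeq2 size factors and 1 to 3 leaving out 1 mouse. The mRNA probes without B2m, the ligation controls and the bound without NEG_C were added after seeing the data. The cause of these shifts was not tested. The smallest margins of miR-203 over the negative-control bound were 1.44 times in control mouse 2 and 1.62 times in low dose mouse 4.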
